A study of Mus musculus with 14 samples.

Results

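Motoneurons that lack miR-218 were set against ventral interneurons of the spinal cord, sorted from other mouse lines. The aim was to see which motoneuron differences remained without this microRNA and which were gone. The members are 5 of the 14 samples of an mRNA sequencing study of mouse tissue, taken by their labels: 2 libraries of double knockout motoneurons (DKO, labelled 218DKO) and 1 library each of V1, V2a and V3 interneurons, which were treated as a single class of 3. Another 6 libraries of wild type (WT) motoneurons were set beside them. All 11 libraries came from embryos of stage E12.5. WT and DKO motoneurons were sorted as GFP-positive cells carrying Hb9::gfp, a reporter driven by regulatory sequence of Mnx1 (also called Hb9), and the DKO libraries differ from WT by the loss of miR-218. Interneurons had a wild type background and were sorted for tdTomato, switched on from Rosa26:LSL:tdTomato by a Cre driver of each type, En1:cre for V1 and Sim1:cre for V3 among them. A Cre driver marks every cell that once expressed it, and the reporters differ between motoneurons and interneurons, so cell type and reporter cannot be told apart. The labels do not say whether replicates came from separate embryos, and p-values then measure only the spread between these libraries.

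Motoneurons are the spinal neurons that leave the cord to drive muscle, and they use acetylcholine. V1 interneurons are inhibitory, V2a and V3 interneurons are excitatory, and all of them connect within the central nervous system. A microRNA guides an Argonaute complex to messenger RNAs whose 3′ untranslated region (UTR) pairs with its seed, the bases near its 5′ end, and lowers their level and translation. miR-218 is highly enriched in motoneurons and is made from a pair of genes inside introns of Slit2 and Slit3.

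The sequences below show what was lost in the DKO and the matching sites in 5 genes that were called higher in DKO than in WT motoneurons and had a lower average in WT than in interneurons; for Syt13 that lower average did not pass the test (adjusted p 0.0854) and the libraries overlapped. The mature microRNA is from RefSeq (GRCm38.p6); its copies lie on the plus strand at chr5:48223966-48223986 in Mir218-1 and chr11:35616840-35616860 in Mir218-2. The sites lie in 3′ UTRs of the GENCODE M21 annotation of GRCm38, each in a window of 30 bases. Capitals mark the seed (bases 2 to 8) in the microRNA and the 8mer match in the sites.
miR-218-5p: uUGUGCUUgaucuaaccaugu
Itm2c, chr1:85908224-85908253, plus strand: atgagtctgccAAGCACAAttgtcctctga
Kif21b, chr1:136176386-136176415, plus strand: cttcttgtcggAAGCACAAactggttgtaa
Kif21b, chr1:136177132-136177161, plus strand: agggcagcttaAAGCACAAacaaggagaag
Plgrkt, chr19:29348828-29348857, minus strand: tcgtgtctcaaAAGCACAAagttgttggct
Syt13, chr2:92955618-92955647, plus strand: attccacataaAAGCACAAaaagtcgcatg
2510009E07Rik, chr16:21649658-21649687, minus strand: ggggaaaaaaaAAGCACAAatttaagtaaa
The UTRs of Kif21b and 2510009E07Rik each hold 2 such 8mers, and those of the other 3 genes hold 1.

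The values are a deposited signal per gene that scales with reads per transcript length and has no named unit. The 75th percentile of the signal lay between 228 and 234 in the 13 libraries with a column. The steps between low values gave an approximate depth of 7.85 M reads for DKO replicate 1, 16.5 M for DKO replicate 2, 17.2 to 18.5 M for the interneurons and 12.4 to 30.2 M for WT. At those depths 3 reads on a transcript of 2000 bases give a signal of 3.94 in DKO replicate 1 and 1.88 in replicate 2, so genes near those levels are poorly resolved in the DKO. In bulk libraries, fewer cells of a type and less RNA per cell cannot be told apart.

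The libraries carried the markers of their labels. Mnx1, a transcription factor that fixes motoneuron identity and the source of the sort reporter, had a signal of 4330 and 3863 in the DKO libraries against 0.775 in V1, 7.46 in V2a and 3.16 in V3. Isl1, a LIM homeodomain factor of motoneurons, had 2157 and 2151 in the DKO against 9.83, 34.4 and 9.11. The interneuron markers En1 (V1), Shox2 (V2a) and Sim1 (V3) had signals of 851, 3975 and 808 in their own libraries. In the DKO they had at most 2.05, 6.55 and 0.680. Other genes of the interneuron lists were present in the DKO. Foxd3 had 382 and 384 in the DKO and 1929 in V1, and Foxp2 had 575.5 and 575 against 1122. WT motoneurons carried them too, at 93.0 to 304 for Foxd3 and 157 to 354 for Foxp2. In limma, DKO against WT was called for Foxp2 (adjusted p 0.0183) and not for Foxd3 (adjusted p 0.074). The V1 list summed to 2218 and 2205 in the DKO, 17100 in V1, 2638 in V2a and 1953 in V3. The V2 list summed to 841 and 761 in the DKO, 1191 in V1, 16270 in V2a and 1845 in V3. The V3 list summed to 310 and 319 in the DKO, 93.2 in V1, 1874 in V2a and 16700 in V3. Across the WT libraries the V1, V2 and V3 lists summed to 1268 to 2211, 800 to 1192 and 112 to 458. Prph, the third motoneuron marker, was higher in the DKO than in each interneuron library but far below WT, and is described with the neurofilaments.

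DKO motoneurons differed from the interneuron class in 1028 of 16622 genes tested with limma on log2(signal + 1), at an adjusted p under 0.05 (6.18% of genes): 565 were higher in the DKO (3.4%) and 463 lower (2.79%). WT motoneurons differed from the same 3 interneuron libraries in 5419 of 16486 genes (32.9%), 17.7% higher and 15.2% lower, with 6 libraries in place of 2. DKO against WT motoneurons, which is the test of the difference between those contrasts, called 1299 of 16260 genes (7.99%), 523 higher (3.22%) and 776 lower (4.77%) in the DKO. Having every DKO library on 1 side of every other library was common in groups this small: 48.8% of genes did not overlap between the DKO and the interneurons, and 30.7% between DKO and WT. The DKO calls depend on both of its libraries: with either DKO library left out, 0 genes passed in limma, with 2467 and 2321 at an unadjusted p under 0.05 without replicate 1 and without replicate 2, beside 4552 (27.4%) with both. Leaving out the V2a library left 18 calls and leaving out V1 gave 2351. The number of calls therefore says little about how many genes differ. For many genes below the DKO and interneuron values of each library are given, with WT as a range or left out.

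Among 15908 genes tested in all 3 comparisons, 1188 were called and at least 2-fold higher in WT motoneurons than in interneurons, and 925 lower. A difference counted as kept where the DKO was also called and at least 2-fold in the same direction. It counted as lost where the DKO was under 2-fold and not called against interneurons, and DKO against WT was called the opposite way. By these rules 245 higher (1.54% of the genes) and 102 lower (0.641%) differences were kept, 167 higher (1.05%) and 75 lower (0.471%) were lost, and none was called the opposite way. The remaining 776 and 748 fell in between, and for 523 and 328 of these the DKO was at least 2-fold the same way without passing the test. The contrasts share the interneuron libraries, and the rules fix the direction of each class, so these counts are a description and carry no test.

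**Figure D1:**
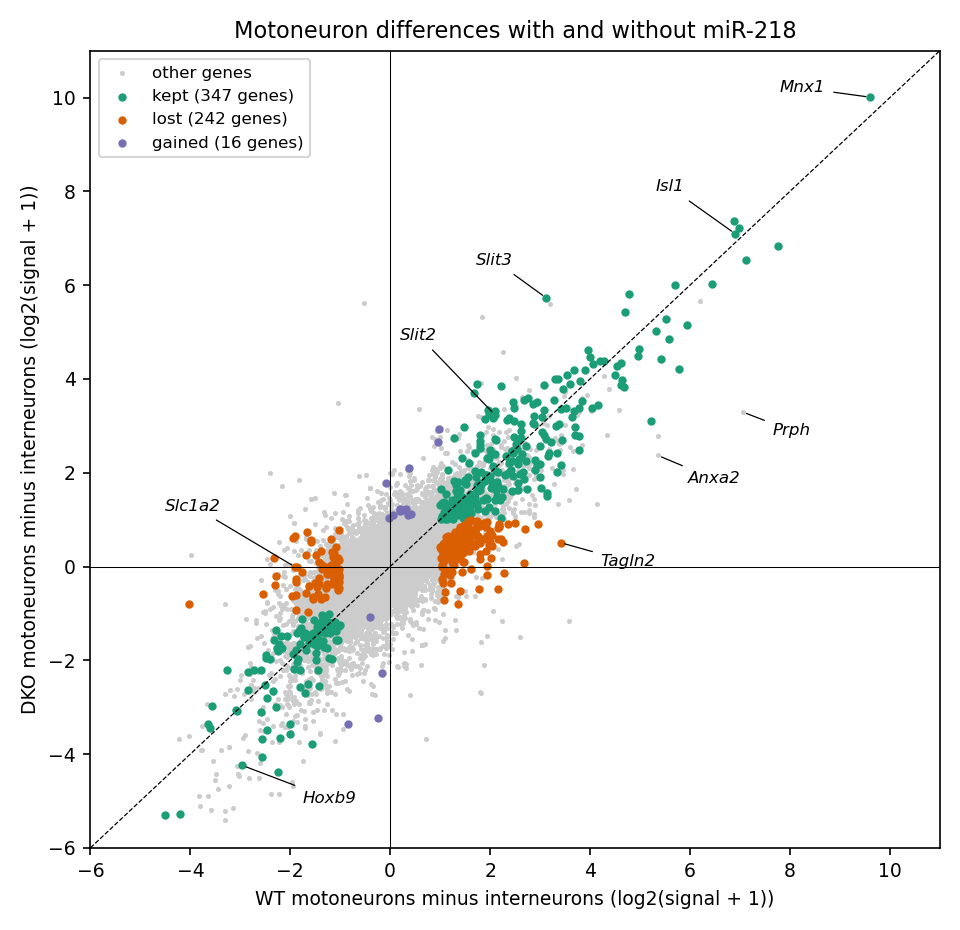
Log2 difference of WT motoneurons from interneurons (x axis) against that of DKO motoneurons from the same 3 interneuron libraries (y axis), 1 point per gene, on the log2(signal + 1) scale; the dashed line marks equal differences. Among the 347 kept genes, 190 of 245 higher and 98 of 102 lower were not called between DKO and WT, while 7.99% of all genes were called. Slit3 lies off the line (5.73 against 3.12). The 242 lost genes lie under 2-fold on the y axis, and the 16 gained genes lie under 2-fold on the x axis.

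The kept genes included the motoneuron factors Mnx1, Isl1 and Isl2. The median difference of the kept genes was 2.20 on the log2 scale in WT and 2.19 in the DKO for the higher genes, and -1.72 in both for the lower genes. The rules required a called difference of at least 2-fold in both groups, which by itself favours similar medians. Over all 1188 higher genes, chosen on WT alone, the median was 1.6 in WT and 1.247 in the DKO. Over all 925 lower genes it was -1.427 in WT and -0.925 in the DKO. Of the 245 kept higher genes 190 were not called between DKO and WT, 40 had a smaller difference in the DKO and 15 a larger one. Over all genes 7.99% were called between DKO and WT, 4.77% lower and 3.22% higher in the DKO. Taken against single types, the median difference of the kept higher genes in the DKO was 2.05 from V1, 2.15 from V2a and 2.24 from V3.

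In the list of motoneuron identity genes, 10 of 20 rose and 0 fell in the DKO against interneurons, beside 3.4% and 2.79% over all genes. The list was chosen with earlier results of these data known. Its median log2 difference was 3.27 in the DKO and 3.29 in WT, while the median over all genes was near 0 (-0.01 in the DKO, -0.04 in WT). Mnx1 was higher by 10.01 ± 0.65 (SE) on the log2 scale, with an adjusted p of 0.0137, and Isl1 by 7.10 ± 0.58 (adjusted p 0.0176). Their WT values ran from 2194 through a median of 3218 to 3995 for Mnx1, and from 1593 through 1846 to 2323 for Isl1. The DKO values of Isl1 lay within the WT range, and DKO replicate 1 lay above it for Mnx1. Neither gene was called between DKO and WT (adjusted p 0.193 and 0.425). Isl2, a close relative of Isl1, had signals of 476 and 346 in the DKO against 0.610, 7.63 and 4.97 in V1, V2a and V3, an increase of 6.54 ± 0.76 (adjusted p 0.0270).

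**Figure D2:**
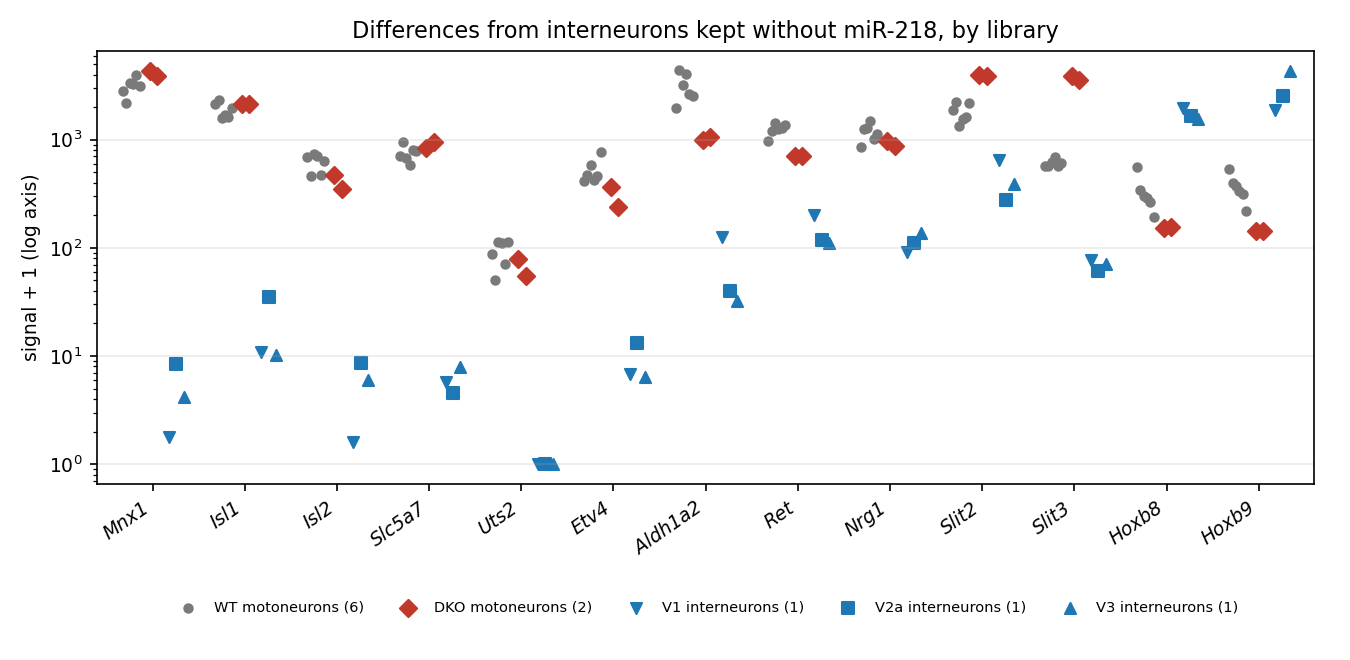
Signal + 1 on a log axis for 13 genes whose difference from interneurons was kept, 1 point per library: WT motoneurons (circles), DKO motoneurons (diamonds), V1, V2a and V3 interneurons (triangle down, square, triangle up). The DKO points lie apart from all 3 interneuron points for each gene; Slit2 and Slit3 are above WT in the DKO.

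Some motoneuron genes could not be called because the interneuron types differ among themselves. Lhx3, a LIM homeodomain factor that motoneurons of the medial column share with V2a neurons, had 470 and 388 in the DKO, 9.20 in V1, 8.86 in V3 and 3293 in V2a. Lhx4 showed the same order, with 841 and 840 in the DKO and 2340 in V2a. The DKO thus lay above V1 and V3 and below V2a for both genes, and the test against the class gave adjusted p of 0.559 and 0.502. Chodl, a membrane lectin of fast motoneurons, had 436 and 512 in the DKO against 42.8, 5.58 and 1.82, which missed the threshold (log2 difference 5.66 ± 1.14, adjusted p 0.0514).

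Among genes of motor columns and pools, 4 of 21 rose and 0 fell in the DKO, beside 3.4% and 2.79% over all genes. Etv4, an ETS factor induced in motor pools by target-derived GDNF, had 365 and 239 in the DKO against 5.80, 12.1 and 5.42 in V1, V2a and V3 (5.16 ± 0.42, adjusted p 0.0176). Mecom, a zinc finger factor, had 272 and 273 against 2.80, 5.64 and 22.6 (5.02 ± 0.78, adjusted p 0.0345). Nr2f2, a nuclear receptor, had 1405 and 1373 against 108, 366 and 129 (3.005 ± 0.53, adjusted p 0.0404), and Etv1, a relative of Etv4, was the other gene that rose. In all 4 genes the DKO libraries were above every interneuron library, and none differed from WT past the threshold. Aldh1a2, which makes the retinoic acid that limb-level motoneurons release, was kept but reduced: it had 989 and 1050 in the DKO, 126, 39.3 and 31.5 in the interneurons, and 1958, a median of 2921 and 4373 across WT. Its DKO values were above all interneurons and below all WT libraries, by 4.21 ± 0.59 against interneurons (adjusted p 0.0308) and -1.56 ± 0.26 against WT (adjusted p 0.00686).

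For acetylcholine, 3 of 17 genes rose in the DKO and 1 fell, with a median log2 difference of 0.68, and 7 rose in WT. Over all genes 3.4% rose and 2.79% fell in the DKO, while 17.7% rose in WT, so these counts cannot be compared directly. Slc5a7, the choline transporter that feeds transmitter synthesis, had 840 and 942 in the DKO against 4.79, 3.56 and 6.89, an increase of 7.23 ± 0.30 (adjusted p 0.00387). Both DKO values lay within the WT range (589 to 943, median 749), and its 3′ UTR holds a miR-218 8mer. Ache, which breaks acetylcholine down, had 497 and 517 against 180, 117 and 63.2 (2.19 ± 0.43, adjusted p 0.0487), and Prima1, which anchors that enzyme in the membrane, had 66.4 and 49.7 against 17.5, 20.4 and 15.3 (1.65 ± 0.28, adjusted p 0.0395). Both were below every WT library, with adjusted p of 0.00887 and 0.00957 against WT. Chrnb2, a nicotinic receptor subunit, was the gene that fell, by 0.48 on the log2 scale. The transmitter enzyme Chat and the vesicular transporter Slc18a3 were not called because V2a carried them too: Chat had 425 and 445 in the DKO, 309 in V2a, 8.44 in V1 and 13.9 in V3. Slc18a3 had 1410 and 1265 in the DKO, 1202 in V2a, 20.1 in V1 and 92.9 in V3.

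The host genes of miR-218 were higher in the DKO than in WT motoneurons. Slit3, which encodes a secreted axon guidance ligand of Robo receptors (chr11:35121224-35708507, plus strand), had 3845 and 3571 in the DKO, 76.8, 59.8 and 70.7 in V1, V2a and V3, and 571 to 694 (median 590) in WT. Slit2 (chr5:47983138-48307733, plus strand) had 3929 and 3894 in the DKO, 655, 279 and 390 in the interneurons and 1344 to 2219 (median 1757) in WT. For both genes the DKO lay above every WT library and WT lay above every interneuron library. Against interneurons Slit3 was higher by 5.73 ± 0.13 in the DKO (adjusted p 0.00068) and 3.12 ± 0.11 in WT, and Slit2 by 3.24 ± 0.35 (adjusted p 0.0251) and 2.09 ± 0.24. The miR-218 genes missing in the DKO lie within both, so an effect of the altered locus and one of the lost microRNA cannot be told apart. Slit1, which hosts no miR-218 gene, was lower in the DKO than in the interneurons, at 470 and 424 against 1138, 907 and 1192 (-1.26 ± 0.14, adjusted p 0.0266).

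In the axon guidance list 5 of 50 genes rose and 4 fell. For this list and the next, the shares over all genes were 3.4% higher and 2.79% lower. Nrp1, a receptor for semaphorin 3A, had 1009 and 902 in the DKO against 162, 48.3 and 93.5 (3.39 ± 0.49, adjusted p 0.0313), and Unc5c, a netrin receptor, had 355 and 335 against 64.0, 15.9 and 36.5 (3.32 ± 0.56, adjusted p 0.0389). Epha3, an ephrin receptor of axial motoneurons, also rose, beside Slit2 and Slit3. The genes that fell were Slit1, the plexins Plxna1 and Plxna2, and Ntn1, the netrin 1 ligand, which had 71.9 and 47.9 in the DKO against 221, 183 and 362. Among neurotrophin and GDNF signalling genes 3 of 16 rose and 0 fell: Ret, the GDNF receptor kinase, had 704 and 705 against 203, 117 and 109 (2.35 ± 0.28, adjusted p 0.0271), and Ntf3, the ligand neurotrophin 3, had 327 and 232 against 15.97, 7.09 and 14.6 (4.42 ± 0.40, adjusted p 0.0202). Il6st, the shared receptor of the CNTF family, had 545 and 480 against 165, 181 and 208 (1.47 ± 0.14, adjusted p 0.0202). Each of these 3 had DKO values below every WT library and above every interneuron library. Of the 16 genes 6 were lower in the DKO than in WT, beside 4.77% over all genes. Nrg1, the neuregulin that motoneurons present to muscle and Schwann cells, had 972 and 876 in the DKO against 91.2, 110 and 135 (3.05 ± 0.18, adjusted p 0.0137).

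Of 23 neuropeptide genes 7 rose and 1 fell in the DKO (median 1.52), beside 3.4% and 2.79% over all genes. Uts2, the urotensin 2 peptide, had 77.7 and 53.4 in the DKO and was listed at 0 in all 3 interneuron libraries. Tac1, the substance P precursor, had 316 and 464 against 22.9, 5.25 and 1.11 (5.82 ± 1.01, adjusted p 0.0395), above every WT library (113 to 279). Calca, which encodes the calcitonin gene-related peptide of motoneurons, had 78.0 and 91.1 against 2.42, 2.33 and 3.94 (4.48 ± 0.36, adjusted p 0.0176). Nxph4, a neurexophilin, was the gene that fell.

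For transmission and excitability the calls are to be read against the 3.4% of all genes called higher and 2.79% called lower, and the channel and vesicle lists below with 1 or 2 calls upward lie near those shares. Of 41 potassium channel genes 5 rose and 0 fell, led by Kcnab1, an auxiliary subunit (369 and 396 against 33.2, 12.97 and 9.51; 4.49 ± 0.52, adjusted p 0.0270), and Kcnip4, a Kv4 channel partner (358 and 358 against 47.4, 17.0 and 19.2; 3.79 ± 0.46, adjusted p 0.0271). Of 18 GABA and glycine receptor genes 3 rose: Gabrg1 had 56.9 and 73.3 against 8.04, 2.96 and 3.86 (3.56 ± 0.46, adjusted p 0.0287), and Gabra2 and Gabra3 were the others. Of 28 sodium, calcium and HCN channel genes 1 rose (Cacna1e), and of 39 vesicle release genes Cplx1 and Stx1a rose and Synpr fell. Cplx1, a complexin that gates fusion, had 1280 and 1362 in the DKO, 667, 458 and 330 in the interneurons and 1666 to 2392 in WT. Stx1a, the syntaxin of the release machinery, had 855 and 782, 310, 335 and 445, and 1310 to 1742. Both lay between the interneurons and WT without overlap, called in each direction (adjusted p 0.048 and 0.0321 against interneurons, 0.0208 and 0.00281 against WT). Among cadherins 3 of 27 rose (Cdh9, Cdh6 and Pcdh7) and Cdh4 fell.

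Hox genes, which set position along the body axis, made up the largest list that fell: 16 of 38 were lower in the DKO and 0 higher, with a median of -1.22 (25 of 37 lower in WT, median -1.59). Over all genes 2.79% were lower in the DKO and 15.2% in WT, so these counts cannot be compared directly. Hoxb9 had 143 and 143 in the DKO, 1875, 2511 and 4308 in V1, V2a and V3, and 219 to 532 (median 356) in WT. Hoxb8 had 151 and 154 in the DKO, 1949, 1663 and 1554 in the interneurons and 194 to 561 (median 296) in WT. The DKO was below every WT library and WT below every interneuron library for both genes. The log2 differences from interneurons were -4.24 ± 0.34 for Hoxb9 (adjusted p 0.0176) and -3.48 ± 0.12 for Hoxb8 (adjusted p 0.0017), and Hoxb9 also passed against WT (adjusted p 0.014; Hoxb8 0.0598). Hoxb2 to Hoxb6 were lower than interneurons by 2.20 to 2.64 on the log2 scale and did not pass against WT. The labels do not give the level of the cord dissected.

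Tuba1c, an alpha tubulin with near-identical relatives, had 2237 and 2106 in the DKO against 10.9, 43.95 and 70.4, while its WT values ran from 47.6 to 8507. Gm8580, a predicted gene, had 8.55 and 10.2 in the DKO against 451, 267 and 539, while WT ran from 2.32 to 306. Both groups of motoneurons overlap for these genes, and reads of close copies may be split differently between libraries.

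The lost higher genes were those raised in WT motoneurons and near the interneuron level without miR-218. The median log2 difference from interneurons of the 167 genes was 1.44 in WT and 0.49 in the DKO. For 81 of the 167 the DKO mean lay within the range of the 3 interneuron libraries, for 83 above it and for 3 below it. The interneuron range was set largely by V3, the highest interneuron library in 127 of the 167: the median difference of the DKO was 0.79 from V1, 0.57 from V2a and 0.02 from V3, beside 1.75, 1.63 and 0.996 for WT.

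The leading lost gene was Tagln2, an actin-binding protein of the calponin family, with 212 and 129 in the DKO, 32.7, 80.2 and 586 in V1, V2a and V3, and 927, a median of 1289 and 1520 across WT. The DKO was below every WT library and between the interneuron libraries; DKO against WT was -2.90 ± 0.22 (adjusted p 0.00012). Slc16a3, a lactate exporter, had 27.5 and 25.7 in the DKO, 24.2, 16.4 and 39.9 in the interneurons and 118 to 235 in WT (-2.59 ± 0.23 against WT, adjusted p 0.00024). S100a11, a calcium-binding partner of annexins, had 62.2 and 91.7, 80.6, 79.7 and 185, and 297 to 454. Rhoc, a small GTPase that acts on actin, had 76.7 and 95.8, 12.8, 46.3 and 147, and 278 to 421. Gsn, the actin-severing gelsolin, had 65.3 and 71.2, 28.7, 32.1 and 114, and 184 to 288. In all 5 genes the DKO fell below every WT library and below the V3 library. The other leading genes were Plp2, Hadh, Pnp, Tmem159 and Tgfb1i1, with DKO minus WT differences of -2.10, -1.92, -1.78, -1.64 and -1.61.

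**Figure D3:**
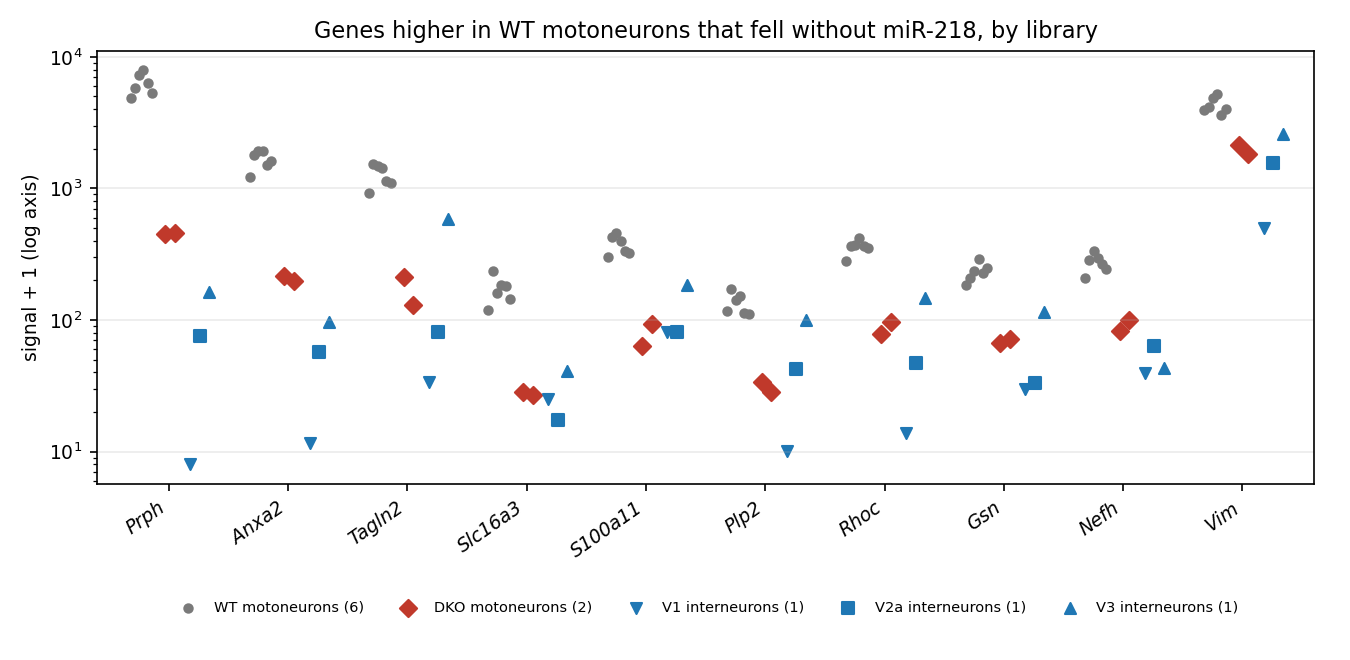
Signal + 1 on a log axis for 10 genes that were higher in WT motoneurons than in interneurons and fell in the DKO, 1 point per library, with the symbols for WT, DKO, V1, V2a and V3 given under the axis. The DKO points lie below all 6 WT points for each gene, and for 9 of the 10 genes (all but Nefh) the V3 point is the highest of the interneurons.

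Intermediate filaments give the axon its calibre and mechanical support. In this list 0 of 7 genes passed in the DKO against interneurons in limma (median log2 difference 0.93), with 5 at an unadjusted p under 0.05. In WT 6 rose (median 2.50), and 3 were lower in the DKO than in WT. Over all genes 6.18% passed in the DKO against interneurons, and 27.4% had an unadjusted p under 0.05. The share higher in WT was 17.7%, and 4.77% were lower in the DKO than in WT. At a share of 6.18% a list this short may hold no call, so 0 of 7 is no result about its members. Prph, the neuronal filament peripherin (chr15:99055174-99058978, plus strand), had 448 and 459 in the DKO, 7.02, 74.1 and 163 in the interneurons, and 4826, a median of 6014 and 7874 across WT. The DKO was above every interneuron library but 13.7-fold below the WT mean, by 3.75 on the log2 scale (adjusted p 2.2e-06). Its difference from interneurons, 3.30 ± 1.26, did not pass (adjusted p 0.168), and passed where spread was pooled with WT in 1 fit of 3 groups (adjusted p 0.0285), so Prph counted neither as kept nor as lost. Nefh, the heavy neurofilament, counted as lost: 81.8 and 98.3 in the DKO, 38.7, 62.6 and 42.1 in the interneurons, 209 to 334 in WT. Both DKO values stayed above every interneuron library, and the log2 difference of 0.925 ± 0.27 was just under the 2-fold limit. Vim, the filament vimentin, was the other lost member, at 2150 and 1809, 495, 1553 and 2594, and 3601 to 5184. The light and medium chains Nefl and Nefm did not pass against WT (adjusted p 0.133 and 0.0855). Nefl had 28460 and 26060 in the DKO, 992, 5756 and 12010 in V1, V2a and V3, and 31960 to 51310 in WT. Nefm had 25310 and 23730 in the DKO and 31260 to 37020 in WT. Both DKO libraries were thus below every WT library for each gene, while 30.7% of all genes did not overlap between DKO and WT.

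Annexins and their S100 partners bind membranes in the presence of calcium. None of 14 passed in the DKO against interneurons in limma (median 0.65), with 4 at an unadjusted p under 0.05. In WT 8 were higher (median 1.49), and 8 were lower in the DKO than in WT. Over all genes 6.18% passed in the DKO against interneurons, and 27.4% had an unadjusted p under 0.05. The share higher in WT was 17.7%, and 4.77% were lower in the DKO than in WT. The DKO counts against interneurons are near what so short a list would hold at those shares, so they are no result about its members. Anxa2, singled out after its values were seen, had 215 and 198 in the DKO, 10.7, 56.1 and 95.5 in the interneurons and 1224 to 1931 (median 1695) in WT. It kept a place above the interneurons in both libraries and fell by 2.98 ± 0.16 on the log2 scale against WT (adjusted p 8.5e-06). Anxa5 (124 and 110 in the DKO, 417 to 584 in WT) and Anxa6 (136 and 119, 322 to 425) were also below every WT library. Anxa6 stayed above every interneuron library, while V3, at 192, lay above the DKO for Anxa5. Anxa4 and S100a11 were the lost members of the list.

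Single members of other lists were lost as well. Ngfr, the p75 neurotrophin receptor, had 2958 and 2544 in the DKO, 866, 1968 and 2578 in the interneurons and 4003 to 6427 in WT. Unc5b, a netrin receptor, had 44.5 and 25.8, 14.04, 22.6 and 27.3, and 51.1 to 80.5. Fgf18, a growth factor, had 73.0 and 48.7, 52.8, 31.8 and 49.4, and 107 to 142. In each of these 3 the DKO lay below all WT libraries, and its lower library lay within the interneuron range. Cdh22, Pcdh1 and Runx1 were also lost.

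The lost lower genes were those that WT motoneurons held below the interneuron level. Their median log2 difference from interneurons was -1.29 in WT and -0.15 in the DKO over 75 genes. The DKO mean lay within the interneuron range in 42, below it in 25 and above it in 8, while the WT mean lay within it in 0 of the 75. Here the types agreed more closely, with DKO medians of -0.25 from V1, -0.10 from V2a and -0.07 from V3, beside -1.403, -1.23 and -1.23 for WT.

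Slc1a2, a glutamate transporter, had 495 and 503 in the DKO, 363, 660 and 529 in the interneurons and 97.9 to 185 in WT, a difference from interneurons of -0.01 ± 0.25. Both DKO values lay inside the interneuron range and above every WT library (adjusted p 0.00068 against WT).

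Kif21b, a kinesin motor, had 2059 and 1950 in the DKO, 2632, 2224 and 2348 in the interneurons and 476 to 874 in WT. Itm2c, a membrane protein related to the BRI family, had 643 and 627, 508, 537 and 468, and 107 to 258. The DKO of Kif21b was a little below the interneurons and that of Itm2c a little above, and both were above every WT library by 1.63 ± 0.22 and 1.72 ± 0.27 (adjusted p 0.00256 and 0.00556). 2510009E07Rik had 325 and 313 in the DKO, 305, 294 and 459 in the interneurons and 74.9 to 124 in WT, and Plgrkt, a plasminogen receptor, had 403 and 391, 354, 446 and 325, and 81.0 to 208. Bmi1, a Polycomb protein, rose from 230 to 331 in WT to 573 and 599 in the DKO and stayed below 671, 841 and 780 in the interneurons. Plxnc1, a semaphorin receptor, and Cacnb4, a calcium channel subunit, were further lost members of the lists. Chl1, an adhesion molecule of the L1 family, had 688 and 814 in the DKO between 358 in V3 and 1594 in V1, so its place in the class rests on the spread among interneuron types.

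**Figure D4:**
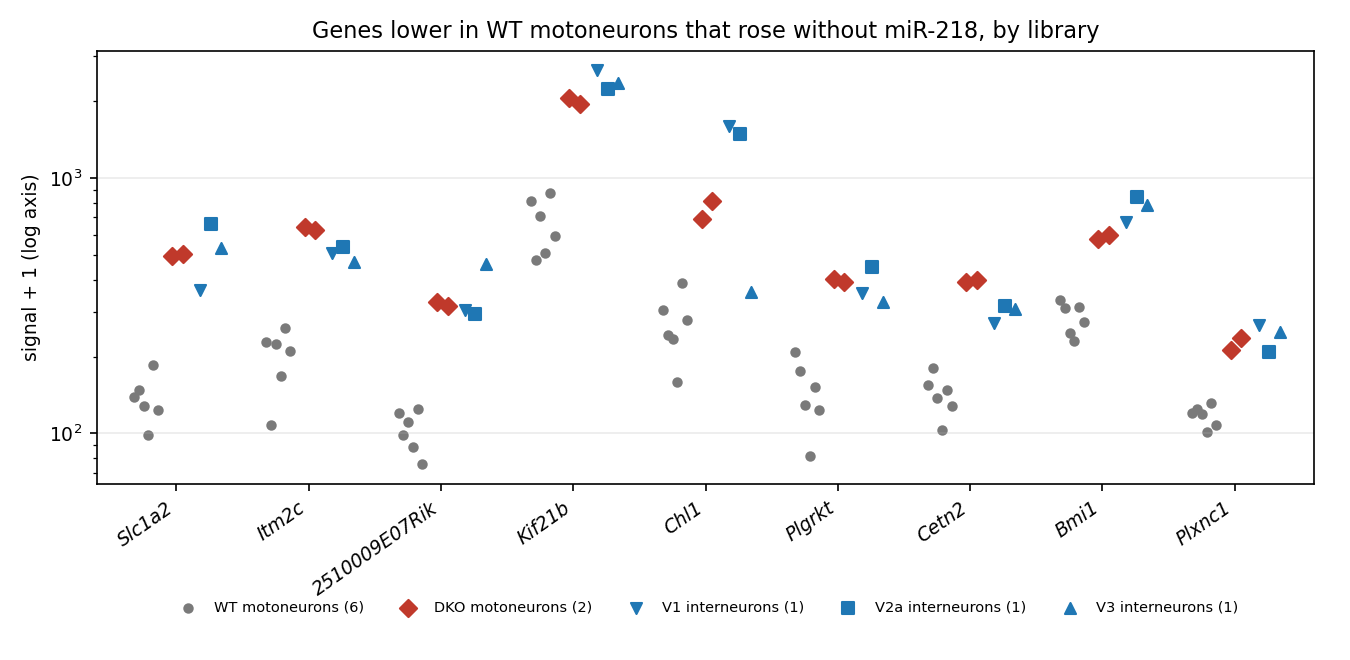
Signal + 1 on a log axis for 9 genes that were lower in WT motoneurons than in interneurons and rose in the DKO, 1 point per library. The DKO points lie above all 6 WT points for each gene, and among or near the V1, V2a and V3 points.

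A small group of differences was gained: 12 genes (0.0754%) were called and at least 2-fold higher in the DKO than in interneurons, under 2-fold and not called in WT, and called higher in the DKO than in WT, and 4 (0.0251%) met these rules on the lower side. Pak3, a kinase of the Rac pathway, had 758 and 887 in the DKO, 429, 276 and 355 in the interneurons and 289 to 599 in WT. Gnai1, an inhibitory G protein subunit, had 621 and 740, 396, 277 and 294, and 332 to 478. In both genes the 2 DKO libraries were above every WT and every interneuron library. Eif5a2, N28178, Fam118a, Brdt, Alad, Ankrd45 and Snhg7 were among the other genes gained, and Epb4.1l4a among those gained on the lower side.

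The site content of these classes was read from the annotation, which the class rules did not use. Sites were the 8mer AAGCACAA, the 7mer-m8 AAGCACA and the 7mer-A1 AGCACAA on the transcribed strand, and each gene was placed by its strongest match; an 8mer also contains both 7mers. Of 14558 genes with an annotated 3′ UTR, 2922 (20.1%) held a site and 626 (4.3%) an 8mer. Of the 66 lost lower genes with a UTR, 47 (71.2%) held a site and 30 (45.5%) an 8mer. Of the 164 lost higher genes 18 (11%) held a site and 1 an 8mer. The kept genes held sites in 25.1% of the higher and 30.9% of the lower genes, with 8mers in 10.2% and 7.45%. Of the 10 gained higher genes with a UTR, 9 held a site and 5 an 8mer. Longer UTRs hold sites more often. Of genes with UTRs under 500 bases, 152 held a site and 4136 did not. With UTRs of 2000 bases or more, 1694 did and 2061 did not. The classes were not matched for UTR length, so its part in these shares was not tested. A match is a description of these letters and does not show that the site is used.

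Over all genes, those with 8mers were at the median lower in WT motoneurons than in interneurons, and near the interneurons in the DKO. With an 8mer (626 genes) the median log2 difference from interneurons was -0.31 in WT, with 199 lower and 90 higher, and a DKO median of 0.06, with 17 lower and 45 higher. Genes with a 7mer-m8 gave -0.13 and 0.02, those with a 7mer-A1 gave -0.06 and 0.03, and the 11636 genes with a UTR and no site gave 0.02 and -0.01. By library, the 8mer median was 0.06 and 0.08 in the DKO libraries and between -0.37 and -0.22 in the 6 WT libraries, without overlap. Measured against single types, the DKO median was 0.02 from V1, 0.06 from V2a and 0.08 from V3. Genes without an annotated UTR, which carry no site by construction, also differed: their median was -0.38 in WT and -0.01 in the DKO, and it ranged from -0.61 to -0.04 over the WT libraries. The part of that difference in the site result was not tested; within UTR length bins up to 500, 1000 and 2000 bases and above, a split chosen after the data were seen, the 8mer median lay between -0.62 and -0.22 in WT and between 0.02 and 0.11 in the DKO.

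**Figure D5:**
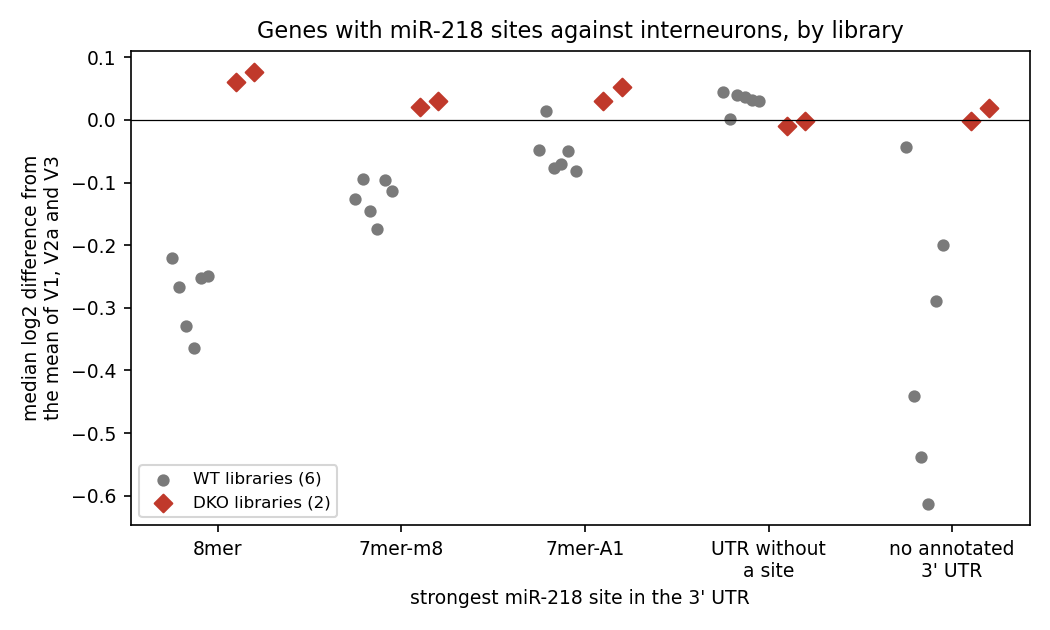
Median log2 difference from the mean of V1, V2a and V3 (y axis) of genes grouped by their strongest miR-218 site (x axis), 1 point per library: WT motoneurons as circles, DKO motoneurons as diamonds. For 8mers the 6 WT points lie between -0.37 and -0.22 and the DKO points at 0.06 and 0.08; genes without an annotated UTR also lie lower in WT.

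Among 30 miR-218 targets named in earlier publications, 1 rose and 2 fell in the DKO against interneurons (median -0.07). In WT 3 rose and 11 fell (median -0.55), and 9 were higher in the DKO than in WT with 0 lower. Over all genes 3.4% rose and 2.79% fell in the DKO, and 17.7% rose and 15.2% fell in WT. Between DKO and WT 3.22% were higher in the DKO and 4.77% lower. The DKO counts against interneurons lie near the shares over all genes and are no result about the targets. Sost, a secreted Wnt inhibitor with an 8mer, was the one that rose: 41.7 and 29.6 in the DKO, 1.64, 2.10 and 1.67 in the interneurons, 3.37 to 19.0 in WT. Slc1a3, a glutamate transporter of radial glia, and Sfrp2 fell. Slc1a2, Bmi1 and Kif21b, described above, were lost lower members. The list may hold genes first reported from these libraries, so its direction is no independent evidence. Syt13, a synaptotagmin on the same list with an 8mer, had 205 and 209 in the DKO, 365, 83.1 and 87.1 in the interneurons and 48.3 to 96.8 in WT; the DKO rose over WT by 1.59 ± 0.23 (adjusted p 0.00363).

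Genes of other cells moved with part of these results, and their part in them was not tested. The calls below stand beside 3.4% of all genes higher and 2.79% lower in the DKO than in interneurons. The summed signal of 9 blood genes was 7.37 and 587 in the DKO, 226 in V1, 14100 in V2a and 1167 in V3, and 4 of the 9, among them Hbb-b1, were at 0 in both DKO libraries. Cell cycle genes, summed over 25, gave 1784 and 1688 in the DKO and 1978, 3371 and 5955 in V1, V2a and V3, with 1 gene (Mcm7) called lower. Progenitor genes gave 4846 and 4277 in the DKO, 3512 to 9093 in the interneurons and 6016 to 8098 in WT, with 3 of 22 lower in the DKO (Pax6, Fabp7 and Msi1). Mesenchyme genes, summed over 7, gave 150 and 99.2 in the DKO, 20.3 and 232 in V1 and V2a and 865 in V3, the library that was highest for most lost higher genes; none of the 7 passed. Without V3 the count of DKO calls was 802, 542 higher and 260 lower. Dorsal and V0 genes gave 327 and 270 in the DKO against 4861, 1601 and 422, and of 18 such genes Lbx1 and Lmx1b fell and Pou4f1 rose, at 138 and 106 in the DKO against 13.4, 28.9 and 33.9 (2.30 ± 0.44, adjusted p 0.0465). Genes of sensory neurons and Schwann cells, summed over 13, gave 3517 and 3081 in the DKO, 2125 to 2867 in the interneurons and 4423 to 6723 in WT, without overlap. Most of that sum was Ngfr; of 11 genes tested Pou4f1 rose, and Ngfr and Runx1 counted as lost. Floor plate genes, summed over 13, gave 4739 and 4607 in the DKO against 2201, 1530 and 2115, most of it Slit2, and the floor plate factors Foxa1 and Foxa2 were at 0 in both DKO libraries. The 12 genes of dissociation stress summed to 9765 and 8931 in the DKO, above 8267, 4146 and 4498 in V1, V2a and V3 and inside the WT range of 3924 to 14610. Of these genes Atf3 rose, at 51.6 and 46.2 in the DKO against 17.1, 9.89 and 8.15 in the interneurons, inside the WT range of 3.21 to 83.5.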

How the data were processed

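Polyadenylated RNA of papain-dissociated, sorted cells was sequenced from libraries that do not mark the strand, per the labels' protocols, so overlapping and antisense genes cannot be separated. The submitters' processing notes name DESeq, bedtools, mm10 and mm9 without their roles; no source used here gives an aligner or counter. The authors deposited a signal for 23523 gene entries, and its scaling is not stated. Within a library, 76.0 to 78.0% of low values lay within 0.1 of a whole multiple of a length-dependent step (20% by chance), from which approximate depth was read.

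limma 3.58.1 (R 4.3.3; limma-trend, two-sided, Benjamini-Hochberg over all genes tested, threshold 0.05) was fitted on log2(signal + 1) on genes whose mean signal reached 1 over the libraries compared, separately for DKO against interneurons, WT against interneurons and DKO against WT. Fold changes on this scale understate changes of low genes. Floor plate tissue, in the labels, was not analysed here. Sites were read in GENCODE M21 UTRs; transcript accessions matched 22924 entries, symbols another 337, and 262 stayed unmatched. The fits were tested on simulated data.

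The members and lists were chosen with earlier results of these data known. Named genes were the 10 largest called differences in each direction, the 10 leading kept, lost and gained genes in each direction (group mean of at least 50, for kept genes within the lists), all tested genes of the identity, acetylcholine and filament lists, up to 3 called members per direction of each other list, the sort markers and host genes, and 6 genes with 8mers; some genes that this rule names are not reported here. Further members were chosen after their values were seen. Alternatives were another pseudocount, filters, scaling, variance prior, joint fits, subsets of WT, a replicate block and leaving out each library.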

Additional observations from a re-analysis of the deposited data

Results flagged for a closer look

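Among 145 named genes, 14 had a WT library whose gap to the nearest other WT library exceeded Dixon's 95% critical value for 6 samples; chance flags about 1 in 20 groups. WT replicate 1 was the outlying library in 8 of the 14, each time as the highest. Its signal was 338 for Igfbpl1 (next 173), 40.5 for Pax6 (next 8.503), 46.6 for Lbx1 (next 16.4), 366 for Hoxb6 (next 231), 425 for Hoxb5 (next 215), 112 for Hoxb4 (next 41.1), 7.86 for Olig2 (next 3.49) and 30.6 for the V2a gene Shox2 (next 3.97). WT replicate 2 was highest for Chrna5 (149, next 107) and Gabrg1 (66.9, next 32.3). WT replicate 6 was highest for Rec8, at 247 (next 33.1) and in the interneuron range of 187 to 296, and for Sost, at 19.0 (next 8.63). WT replicate 3 was highest for Atf3 (83.5, next 31.9), and WT replicate 5 was lowest for Lhx4 (415, next 581). The DKO and interneuron groups are too small for this check.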

How the results depend on the processing

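The labels number WT and DKO replicates alike, but the correlation of replicate 1 minus 2 between the groups was -0.03 over 13056 genes, so the numbers were not taken as pairs; a replicate block gave 214 calls for DKO against WT in place of 1299. Interneuron libraries carry no replicate number, so no such fit exists for the DKO against interneurons. A constant variance prior gave 75 calls for DKO against interneurons, 844 for DKO against WT, 59 kept and 2 gained differences. A joint fit of 3 groups gave 2144, 633, 819 and 25, and 113 lost; 342 of its kept genes were among the 347. With each interneuron type as its own group, whose spread then comes from motoneurons alone, the DKO calls were 3272, kept 1172 and gained 62. WT replicates 2, 3 and 4 alone gave 2452 calls against WT and 654 lost, replicates 1, 5 and 6 alone gave 2315 and 31 gained and 3536 for WT against interneurons, and replicates 1 and 2 alone gave 6, 228, 146 kept, 1 lost and 0 gained. The 8mer median in WT moved to -0.27 with a minimum mean signal of 10, -0.25 with WT replicates 1, 5 and 6 and -0.24 with replicates 1 and 2; in the DKO it stayed between 0.06 and 0.08 as single libraries were left out. Leaving out single libraries gave 0 to 2351 calls for DKO against interneurons (0 without either DKO library, 18 without V2a, 2351 without V1), 97 to 2032 for DKO against WT (97 without DKO replicate 1, 141 without DKO replicate 2, 827 without WT replicate 4, 2032 without WT replicate 2), 0 to 864 kept, 39 to 297 lost and 0 to 39 gained; a lone DKO library is assumed to vary like the other group. No named gene reversed. Of 79 named genes called against interneurons, 79 held without V1, 59 without V3 and 10 without V2a. With a constant variance prior 18 held, and 78 held with a pseudocount of 4 and with median-of-ratios scaling. The cause of these changes was not tested.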
